A study of Homo sapiens with 6 samples.

Results

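The genes described are 10 effectors and targets of the transcriptional coactivators YAP and TAZ: CCN1, CCN2, ANKRD1, AMOTL2, LATS2, TEAD1, YAP1, WWTR1, AJUBA and FOXF2. They were taken by symbol from a count table of 58051 Ensembl gene IDs. All 10 matched a row and passed the low-count filter, among 16690 genes tested. Bulk RNA-seq was done on A375, an established human melanoma cell line with mutant BRAF, in 6 libraries. The TGFB1 group (3 libraries) was given recombinant human TGFB1, the ligand of the TGF-beta receptors, at 10 ng/mL for 2 h. The Vehicle group (3 libraries) was given 4 mM HCl containing 1 mg/mL BSA, also for 2 h. Cells of both groups had been starved of serum for 2 h beforehand. The series' design text calls the replicates technical, so p-values measure the spread between these libraries and not between independent experiments.

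YAP, encoded by YAP1, and TAZ, encoded by WWTR1, do not bind DNA themselves. They act in the nucleus through the TEAD transcription factors, and the Hippo kinase cascade, with LATS kinases at its end, holds them in the cytoplasm by phosphorylation. YAP and TAZ can also share promoters and enhancers with SMAD proteins, the nuclear messengers of TGF-beta, and in melanoma they are known for roles in invasion and in resistance to inhibitors of the BRAF pathway.

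The TEAD factors recognise the letters GGAATG on either strand. The stretches that hold these letters are shown for 4 members: CCN2, FOXF2 and AMOTL2, which rose, and ANKRD1, which did not pass the test described below. Windows of YAP1 and AJUBA also held the letters. These genes did not pass the test either, and their stretches are not shown. Capitals mark GGAATG (its reverse complement in AMOTL2), the SMAD motif CAGAC, and TGANTCA, a looser form of the AP-1 motif TGA(C/G)TCA. Sequences run 5′ to 3′ on the strand of the gene and come from RefSeq promoter windows on GRCh38.p14. The stretch of CCN2 lies at chr6:131951374-131951622 (minus strand), that of FOXF2 at chr6:1389326-1389575 (plus strand), that of AMOTL2 at chr3:134374499-134374528 (minus strand) and that of ANKRD1 at chr10:90921276-90921337 (minus strand). The AMOTL2 site is shown with 30 bases because GENCODE 29 places it inside a transcribed exon. The ANKRD1 stretch stops where GENCODE 29 starts its exon, which leaves out a second GGAATG and the CAGAC copies downstream.
CCN2: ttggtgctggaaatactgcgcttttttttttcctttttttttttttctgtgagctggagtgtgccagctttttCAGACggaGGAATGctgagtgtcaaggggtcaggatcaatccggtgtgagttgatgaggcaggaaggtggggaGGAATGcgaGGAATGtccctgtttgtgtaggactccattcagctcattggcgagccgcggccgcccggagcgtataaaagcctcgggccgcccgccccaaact
FOXF2: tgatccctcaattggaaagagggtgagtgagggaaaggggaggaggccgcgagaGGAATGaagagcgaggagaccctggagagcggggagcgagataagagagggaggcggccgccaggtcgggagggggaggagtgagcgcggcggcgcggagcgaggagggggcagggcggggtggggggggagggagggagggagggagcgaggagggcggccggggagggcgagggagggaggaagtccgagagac
AMOTL2: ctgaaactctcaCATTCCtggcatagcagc
ANKRD1: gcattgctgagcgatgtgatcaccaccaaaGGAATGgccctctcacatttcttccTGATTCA
The 250 bases before the annotated start were searched on both strands in 11 windows of 8 members; the windows of CCN1 and TEAD1 were not analysed here. GGAATG stood in 6 of the 11 windows, 1 each of CCN2, FOXF2, AMOTL2, ANKRD1, YAP1 and AJUBA, against 11.9% of 35116 RefSeq windows of the same length. In AMOTL2 and AJUBA that window lies inside the gene as GENCODE 29 draws it, and each has another window farther upstream. CCN2 held 3 copies, a number reached by 0.0826% of all windows. CAGAC stood in windows of CCN2, ANKRD1, AMOTL2 and AJUBA, and 38.0% of all windows held it. In AMOTL2 and AJUBA it lay in a different window from GGAATG. The AP-1 motif TGANTCA stood in the ANKRD1 window, against 6.57% of all windows. The SMAD palindrome GTCTAGAC and the CArG box of serum response factor stood in 0 of the 11 windows, against 0.182% and 1.16% of all. These matches describe letters and are not evidence of binding.

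TGFB1 libraries held 32458753 to 34895075 counts and Vehicle libraries 24713894 to 34374668. Vehicle replicate 1 was the shallowest and lay farthest from the other libraries on the first principal component, which carried 28.9% of the variance. No library duplicated another: pairs within a group varied 5.04 to 25.1 times as much as counting error gives. SMAD7, the inhibitory SMAD gene that TGF-beta is known to induce, averaged 61.2 ± 4.02 CPM with TGFB1 and 9.26 ± 1.87 CPM in Vehicle (SD, n = 3 each; log2 fold change 2.70). CPM are counts scaled to the library's total. Of 7 melanocytic markers, MITF, S100B and DCT were detected above 1 CPM on average, PMEL, MLANA and TYR were below it, and SOX10 was listed at 0 in all 6 libraries. Their summed level was 110.8 to 115.5 CPM with TGFB1 and 122.0 to 134.6 CPM in Vehicle. In the edgeR test described below, MITF was lower with TGFB1 (log2 fold change -0.23, adjusted p = 0.0355). MLANA had a log2 fold change of 0.94 and did not pass that test (adjusted p = 0.563). The sum over 4 fibroblast markers, mainly LUM, was 11.98 to 12.3 CPM with TGFB1 and 14.1 to 16.4 CPM in Vehicle, and that over the keratinocyte markers KRT5 and KRT14, mainly KRT14, 14.4 to 18.7 and 13.9 to 16.5 CPM. Endothelial and leukocyte markers each summed to less than 1 CPM in every library. The part of these differences in the results below was not tested.

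After 2 h of TGFB1, 3 of the 10 members had risen and 0 had fallen, where 3.31% of all tested genes were called, 2.43% higher and 0.887% lower. A gene was called when its Benjamini-Hochberg adjusted p in edgeR's quasi-likelihood test over 16690 genes was below 0.05, and adjusted p-values below are from that test unless another is named. The risers were FOXF2, AMOTL2 and CCN2, with fold changes of 1.92, 1.64 and 1.57. The mRNAs of the coactivators, of TEAD1 and of the kinase LATS2 did not pass the test, and neither did those of the targets CCN1 and ANKRD1 or of AJUBA. The median log2 fold change of the 10 members was 0.14, and that of all tested genes was -0.01; it was above 0 for 8 of the 10 members and 48% of all tested genes. For 4 members every TGFB1 library exceeded every Vehicle library, against 9.04% of all genes in that direction. Lists and members were chosen with earlier results of these data known, so these shares are descriptions. Bulk RNA cannot tell a change in some of the cells from a smaller change in all of them, nor fewer cells of a type from less RNA per cell.

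**Figure D1:**
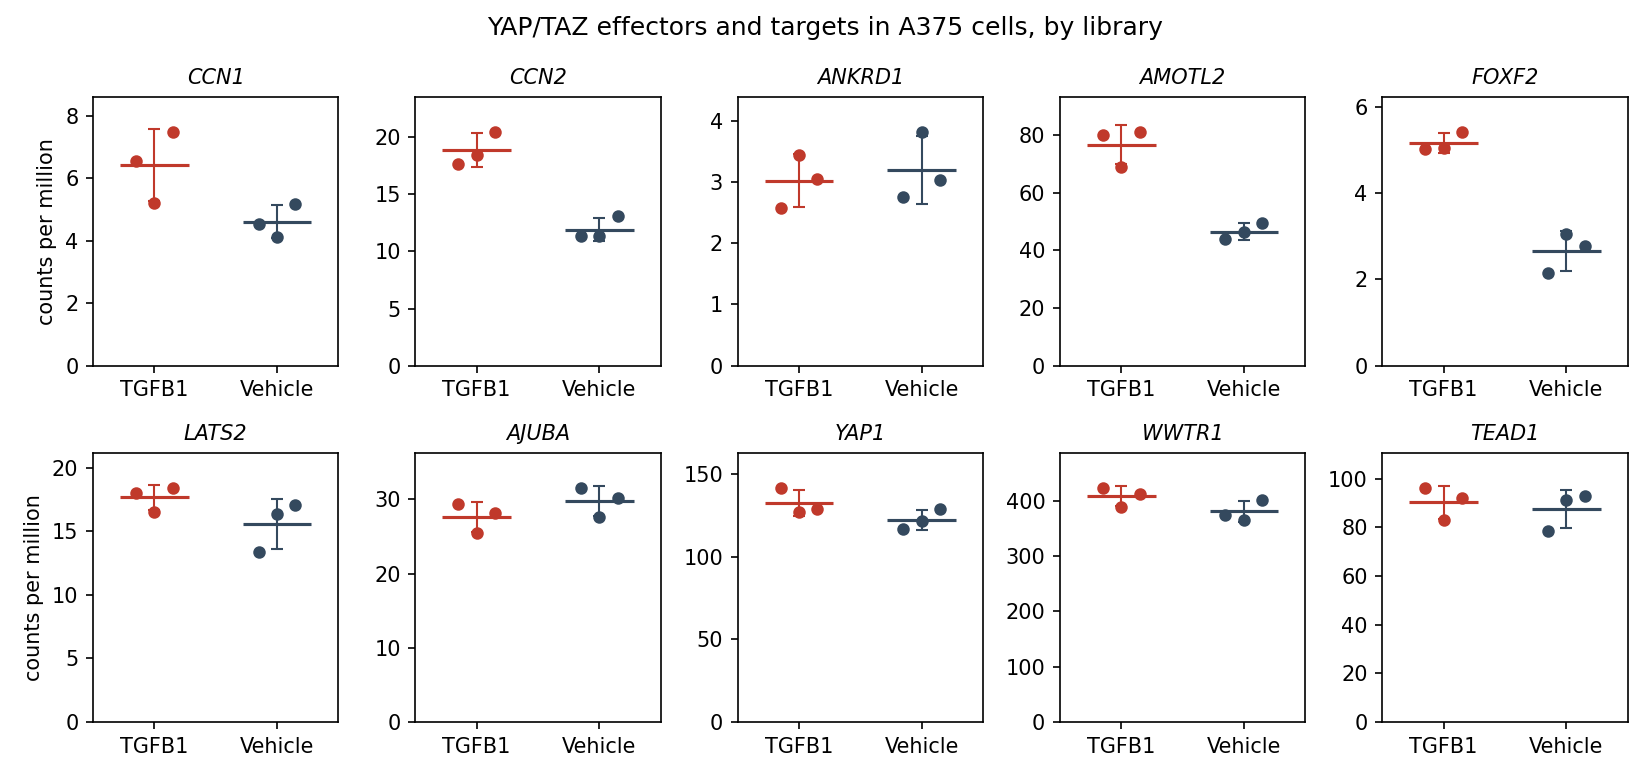
Level of each member in CPM, by library (points), with the mean (line) and SD (bar) of 3 libraries a group, on axes from 0. The TGFB1 and Vehicle points are apart for CCN2, AMOTL2 and FOXF2, almost touch for CCN1 and overlap for the other members.

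The coactivators were expressed in every library. WWTR1 had 424, 388 and 413 CPM in TGFB1 replicates 1, 2 and 3, against 374, 366 and 402 CPM in Vehicle replicates 1, 2 and 3. YAP1 had 142, 127 and 129 CPM in TGFB1 replicates 1, 2 and 3, against 117, 122 and 129 CPM in Vehicle replicates 1, 2 and 3. The groups overlapped for both genes, since Vehicle replicate 3 stood above the lowest TGFB1 library. The log2 fold change was 0.09 for WWTR1, with a 95% interval of -0.01 to 0.19 (adjusted p = 0.46), and 0.11 for YAP1, with an interval of -0.003 to 0.218 (adjusted p = 0.427). These intervals, unadjusted for the number of genes, do not reach a rise of the size seen for CCN2. Divided by exonic length, WWTR1 stood at 48.5 ± 2.16 CPM per kilobase with TGFB1 and 45.3 ± 2.25 in Vehicle, and YAP1 at 21.1 ± 1.252 with TGFB1 and 19.4 ± 0.962 in Vehicle (SD, n = 3 each). WWTR1 thus made up 69.1% to 70.5% of the summed YAP1 and WWTR1 level per kilobase in TGFB1 libraries and 69.3% to 70.6% in Vehicle libraries. Exons of the other strand cover 9.45% of the exonic bases of WWTR1 and 9.97% of those of YAP1. The strand setting of the counting is not given in the sources used here. The WWTR1 partner, the antisense gene WWTR1-AS1, had 0.738 to 1.23 CPM with TGFB1 and 0.421 to 0.669 CPM in Vehicle, small beside WWTR1, and the YAP1 partner was listed at 0.

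TEAD1, the DNA-binding partner of YAP and TAZ, had 96.2, 82.9 and 91.8 CPM in TGFB1 replicates 1, 2 and 3, against 78.4, 91.2 and 92.8 CPM in Vehicle replicates 1, 2 and 3. The groups overlapped, and the lowest value belonged to Vehicle replicate 1. Its log2 fold change was 0.04 (95% interval -0.09 to 0.16, adjusted p = 0.898). The sign turned without Vehicle replicate 1 (-0.03) or TGFB1 replicate 1 (-0.01), so no direction is given. Per kilobase, TEAD1 stood at 8.78 ± 0.660 CPM with TGFB1 and 8.51 ± 0.771 CPM in Vehicle, below its paralog TEAD4 at 12.3 ± 0.768 and 11.8 ± 1.09 CPM (SD, n = 3 each). TEAD2 and TEAD3 were lower, at 1.82 and 1.19 CPM per kilobase with TGFB1 and 1.63 and 0.977 in Vehicle. TEAD1 made up 35.5% to 38.2% of the summed level of the TEAD genes per kilobase with TGFB1 and 36.4% to 37.5% in Vehicle. Undivided by length, TEAD1 averaged 90.3 CPM with TGFB1 and 87.5 CPM in Vehicle, above TEAD4 at 27.9 and 26.9 CPM. The order per kilobase thus rests on the exonic lengths used, 10279 bases for TEAD1 and 2272 for TEAD4, which need not be those of the transcripts expressed.

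Of the restraints on YAP and TAZ among the members, AMOTL2 rose. AMOTL2 encodes an angiomotin-like scaffold that binds YAP and TAZ and can keep them out of the nucleus, and the gene is itself a YAP target. It lies on chromosome 3 at 134355874 to 134375479 (GRCh38, GENCODE 29, minus strand). AMOTL2 had 80.1, 68.8 and 81.2 CPM in TGFB1 replicates 1, 2 and 3, against 43.9, 46.3 and 49.5 CPM in Vehicle replicates 1, 2 and 3. Every TGFB1 library lay above every Vehicle library by a wide gap. The means were 76.7 ± 6.86 and 46.6 ± 2.83 CPM with TGFB1 and in Vehicle (SD, n = 3 each), and the log2 fold change was 0.71 (SE 0.07, adjusted p = 1.31e-09). Of the called members it rests on the most reads, 2402 to 2637 counts in TGFB1 libraries and 1084 to 1702 in Vehicle libraries.

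LATS2, the kinase that phosphorylates YAP and TAZ and a target gene of theirs, had 18.05, 16.5 and 18.4 CPM in TGFB1 replicates 1, 2 and 3, against 13.4, 16.4 and 17.05 CPM in Vehicle replicates 1, 2 and 3. Vehicle replicate 1 alone lay well below the other libraries. The log2 fold change of 0.17 (95% interval -0.04 to 0.38) had an adjusted p = 0.569, and it was 0.08 without Vehicle replicate 1. AJUBA, a LIM-domain protein that binds LATS kinases and restrains them, had 29.4, 25.5 and 28.2 CPM in TGFB1 replicates 1, 2 and 3, against 31.6, 27.6 and 30.2 CPM in Vehicle replicates 1, 2 and 3. Its libraries overlapped, with a log2 fold change of -0.11 (95% interval -0.28 to 0.06, adjusted p = 0.652). For LATS2 and AJUBA the interval thus stops short of the change seen for AMOTL2.

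Among the targets, CCN2 and CCN1 encode secreted matricellular proteins of the same family, and both are widely used as readouts of YAP activity. CCN2 lies on chromosome 6 at 131948176 to 131951373 (minus strand). CCN2 had 17.7, 18.5 and 20.5 CPM in TGFB1 replicates 1, 2 and 3, against 11.3, 11.3 and 13.1 CPM in Vehicle replicates 1, 2 and 3. The lowest TGFB1 library stood above the highest Vehicle library, and the log2 fold change was 0.65 ± 0.11 (SE, adjusted p = 5.69e-05), from 575 to 665 counts with TGFB1 and 280 to 450 in Vehicle. Of its exonic bases 8.34% lie under a gene of the other strand, which was listed at 0 in the TGFB1 libraries and at 0.121 CPM or less in Vehicle.

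CCN1 had 6.55, 5.19 and 7.49 CPM in TGFB1 replicates 1, 2 and 3, against 4.53, 4.11 and 5.18 CPM in Vehicle replicates 1, 2 and 3. The groups were set apart by a hair, between TGFB1 replicate 2 and Vehicle replicate 3. CCN1 had a log2 fold change of 0.46 ± 0.17 (SE), with a 95% interval of 0.12 to 0.80, an unadjusted p = 0.00921 and an adjusted p = 0.163, so CCN1 was not called. It also did not pass with DESeq2 (adjusted p = 0.187) or limma-voom (adjusted p = 0.252), and across the alternatives its adjusted p ran from 0.0737 to 0.651. The spread between TGFB1 libraries (18.0% of the mean) was wider than counting alone gives (6.86%). This was not particular to CCN1. Among the called members the spread with TGFB1 was 8.95% for AMOTL2, 7.68% for CCN2 and 4.43% for FOXF2. Counting alone gives 1.98%, 3.99% and 7.63% for these genes. The log2 fold change of CCN1 was not shown to differ from that of CCN2: their ratio within a library, which needs no scaling, overlapped between groups, as given below.

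ANKRD1, which encodes a nuclear ankyrin-repeat cofactor, is also a common YAP readout. It had 2.58, 3.44 and 3.05 CPM in TGFB1 replicates 1, 2 and 3, against 2.75, 3.82 and 3.03 CPM in Vehicle replicates 1, 2 and 3. The groups lay over one another, from 84 to 120 counts with TGFB1 and 68 to 118 in Vehicle. Its log2 fold change of -0.09 ± 0.21 (SE, adjusted p = 0.927) had a 95% interval of -0.53 to 0.34. That interval excludes a rise as large as the estimate for CCN2, AMOTL2 or FOXF2, and it includes smaller changes in either direction. The spread between libraries was 14.2% of the mean with TGFB1 and 17.4% in Vehicle, where counting alone gives 9.95% and 10.2%. Leaving out TGFB1 replicate 1 or Vehicle replicate 2 turned its sign (0.02 and 0.07), so no direction is given. As in CCN2, its promoter window holds GGAATG and CAGAC.

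FOXF2, a forkhead transcription factor gene of mesenchymal tissues, had the largest log2 fold change of the 10. It lies on chromosome 6 at 1389576 to 1395603 (plus strand). FOXF2 had 5.01, 5.04 and 5.42 CPM in TGFB1 replicates 1, 2 and 3, against 2.14, 3.05 and 2.76 CPM in Vehicle replicates 1, 2 and 3. The TGFB1 libraries were close to each other and above all Vehicle libraries. On the log2 scale the change was 0.94 ± 0.19 (SE, adjusted p = 0.00157), with a 95% interval of 0.55 to 1.33 that includes the estimates for AMOTL2 and CCN2. It rests on 163 to 176 counts in TGFB1 libraries and 53 to 95 in Vehicle libraries. The microRNA gene MIR6720 covers 4.00% of its exonic bases on the other strand and was listed at 0 in all 6 libraries.

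**Figure D2:**
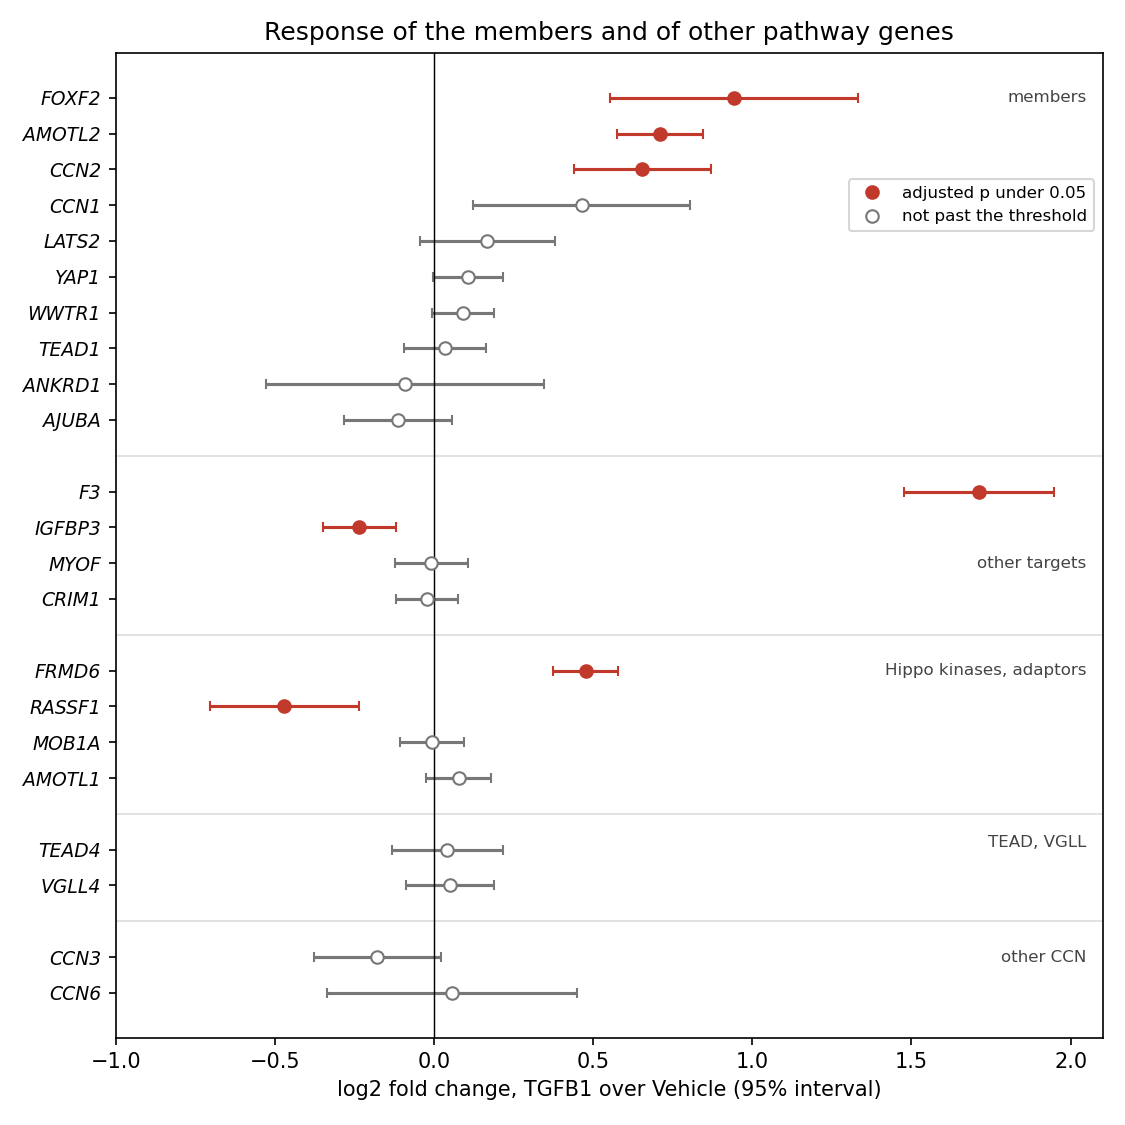
Log2 fold change of TGFB1 over Vehicle, with its 95% interval (unadjusted), for the 10 members and for named genes of the other lists. Filled points passed the test. Intervals of FOXF2, AMOTL2 and CCN2 share a range, and those of YAP1, WWTR1 and TEAD1 are narrow and close to 0.

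Set against all called genes, the responses were of middling size. The median log2 fold change of the 405 genes called higher was 0.51, and FOXF2, AMOTL2 and CCN2 ranked 108, 152 and 161 among them, while SMAD7 ranked 12. The order of the members per kilobase with TGFB1 was WWTR1 (48.5 CPM), YAP1 (21.1), AMOTL2 (12.8), TEAD1 (8.78), CCN2 (8.07), AJUBA (4.63), LATS2 (3.17), CCN1 (2.61), FOXF2 (2.105) and ANKRD1 (1.53). In Vehicle it was WWTR1 (45.3 CPM per kilobase), YAP1 (19.4), TEAD1 (8.51), AMOTL2 (7.78), CCN2 (5.09), AJUBA (4.98), LATS2 (2.79), CCN1 (1.88), ANKRD1 (1.62) and FOXF2 (1.08). AMOTL2 thus passed TEAD1 and FOXF2 passed ANKRD1 in this order. The ranges of mean ± SD of neighbours overlapped with TGFB1 for TEAD1 and CCN2, LATS2 and CCN1, and CCN1 and FOXF2. They overlapped in Vehicle for TEAD1 and AMOTL2, CCN2 and AJUBA, and CCN1 and ANKRD1. The exonic lengths are those of GENCODE 29, which need not be the annotation used for counting.

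The called members are not long genes: CCN2, FOXF2 and AMOTL2 span 3.198, 6.03 and 19.6 kb. Members not called cover the range from CCN1 (3.202 kb), ANKRD1 (9.18 kb) and AJUBA (11.5 kb) to WWTR1 (219.5 kb) and TEAD1 (269.9 kb). TGFB1 replicate 2 was the lowest TGFB1 library for 7 of the 10 members, against 39.7% of all tested genes. Vehicle replicate 1 was the lowest Vehicle library for 6 of the 10, against 37.5% of all. Without TGFB1 replicate 2 or Vehicle replicate 1, the called members were again 3.

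**Figure D3:**
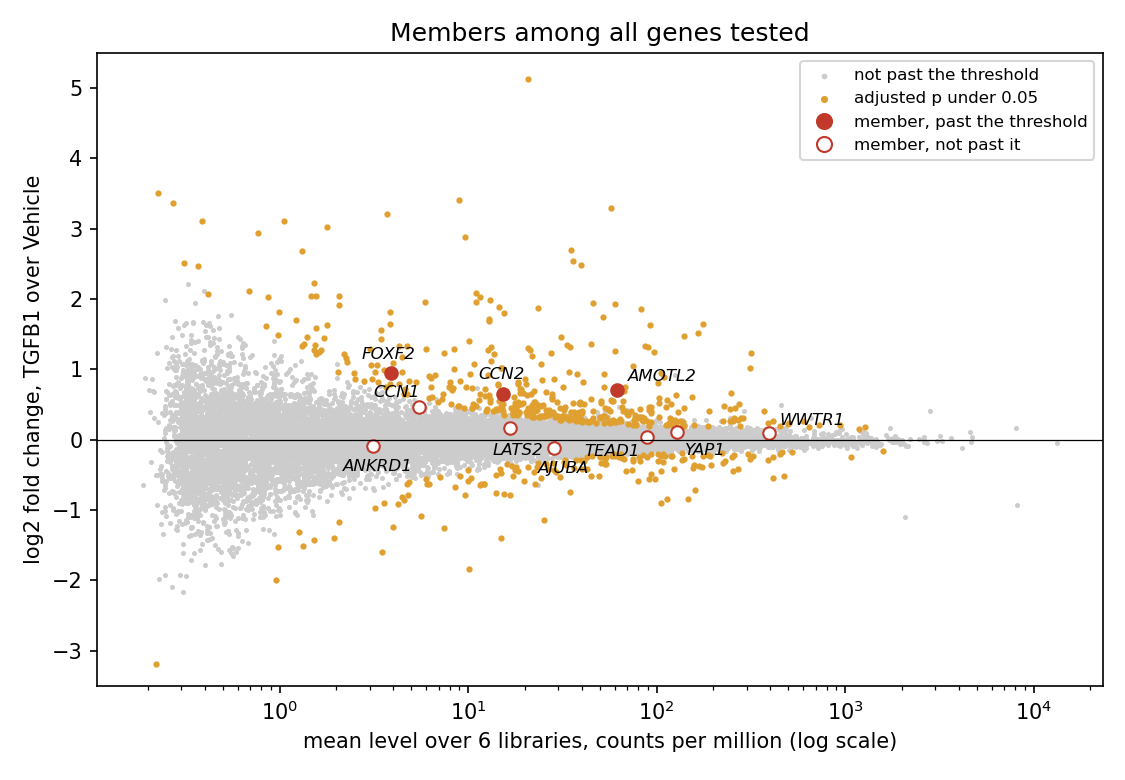
Log2 fold change of TGFB1 over Vehicle against the mean level (log axis) for the 16690 genes tested, with the members marked. FOXF2, CCN2 and AMOTL2 lie in the upper edge of the cloud at 3.91, 15.4 and 61.6 CPM, and the other members lie within the cloud.

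Ratios within a library compare a member with a paralog or partner without any scaling between libraries. The AMOTL2 to AMOTL1 ratio of counts was 0.274, 0.248 and 0.273 in TGFB1 replicates 1, 2 and 3, against 0.172, 0.171 and 0.170 in Vehicle replicates 1, 2 and 3. The groups did not overlap, and the log2 ratio was higher by 0.63 with TGFB1 (exact permutation test, two-sided, p = 0.1, the smallest that 3 against 3 libraries allow, 0.5 adjusted over 5 pairs). AMOTL1, the paralog scaffold gene, stood at 289.2 ± 10.4 CPM with TGFB1 and 272.5 ± 17.6 CPM in Vehicle (SD, n = 3 each; log2 fold change 0.08, adjusted p = 0.594). The CCN2 to CCN1 ratio was 2.70, 3.56 and 2.74 in TGFB1 replicates 1, 2 and 3, against 2.5, 2.75 and 2.53 in Vehicle replicates 1, 2 and 3. These overlapped, with a log2 difference of 0.20 (exact permutation test, two-sided, p = 0.3, adjusted 0.5).

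The other 3 pairs overlapped as well. The WWTR1 to YAP1 ratio averaged 3.08 ± 0.108 with TGFB1 and 3.11 ± 0.0947 in Vehicle (exact permutation test, two-sided, p = 0.7, adjusted 0.7). LATS2 to LATS1, its paralog kinase, averaged 0.730 ± 0.0228 and 0.680 ± 0.0398 in TGFB1 and Vehicle (exact permutation p = 0.3, adjusted 0.5). AJUBA to LIMD1, a related LIM protein gene, averaged 2.04 ± 0.0344 and 2.12 ± 0.227 in TGFB1 and Vehicle (exact permutation p = 0.7, adjusted 0.7; all SD, n = 3 each).

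**Figure D4:**
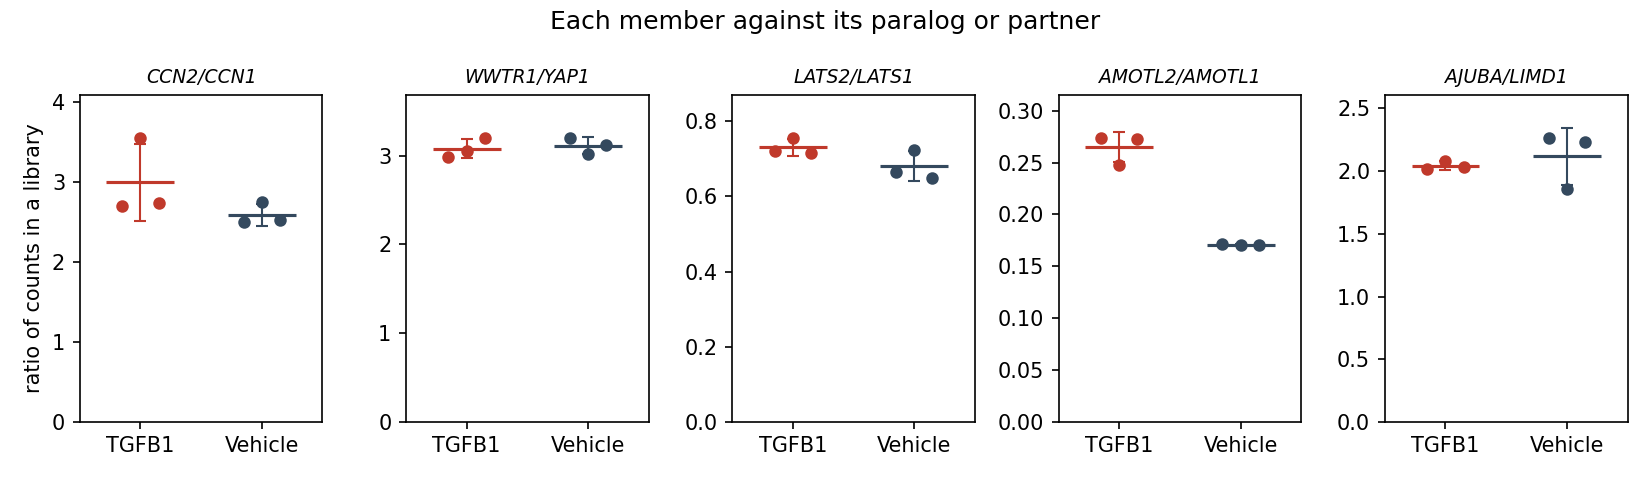
Ratio of counts of a member to its paralog or partner within each library (points), with the mean (line) and SD (bar) of 3 libraries a group, on axes from 0. The TGFB1 points for AMOTL2 over AMOTL1 lie above all Vehicle points, and the groups overlap in the other 4 panels.

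Of 16 other published YAP and TAZ target genes, all tested, 1 rose and 1 fell at an adjusted p under 0.05. Of all tested genes 3.31% were called, 2.43% higher and 0.887% lower. The median log2 fold change of the 16 was -0.01. The members, and with them the risers CCN2, AMOTL2 and FOXF2, were left out of this list. F3, the tissue factor gene that starts coagulation, had 19.4, 20.03 and 20.06 CPM in TGFB1 replicates 1, 2 and 3, against 5.58, 5.64 and 6.78 CPM in Vehicle replicates 1, 2 and 3. For F3 the log2 fold change was 1.71 ± 0.12 (SE, adjusted p = 3.73e-13), above that of any member. IGFBP3, which encodes a carrier of insulin-like growth factors, averaged 109.7 ± 5.45 CPM with TGFB1 and 128.4 ± 9.87 CPM in Vehicle (SD, n = 3 each; log2 fold change -0.23, adjusted p = 0.00981). IGFBP3 lost its call without TGFB1 replicate 2 (adjusted p = 0.0871) or TGFB1 replicate 3 (adjusted p = 0.0547). The most abundant of the others, CRIM1 and MYOF, had log2 fold changes of -0.02 and -0.01 at 396.1 and 385.9 CPM. NUAK2, a kinase gene named after its values were seen, had 2.46, 2.92 and 2.87 CPM in TGFB1 replicates 1, 2 and 3, against 0.688, 0.778 and 2.36 CPM in Vehicle replicates 1, 2 and 3. Vehicle replicate 3 stood apart from the other Vehicle libraries. With all libraries the log2 fold change was 1.07 and NUAK2 was not called by edgeR (adjusted p = 0.0855) or DESeq2 (adjusted p = 0.0758). It was called by limma-voom (adjusted p = 0.0499) and by edgeR with no low-count filter (adjusted p = 0.0103). Without Vehicle replicate 3 it was called in edgeR (log2 fold change 1.88, adjusted p = 3.96e-05). AXL, a receptor tyrosine kinase gene likewise named afterwards, had a log2 fold change of 0.16 (adjusted p = 0.0924, and 0.0074 without Vehicle replicate 3). The target count was 3 with limma-voom or no low-count filter, 4 without Vehicle replicate 3, and 1 without TGFB1 replicate 2 or 3.

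Of 20 Hippo kinase, scaffold and adaptor genes, all tested, 1 rose and 1 fell, and the median log2 fold change was -0.02. The shares over all tested genes were 2.43% called higher and 0.887% called lower. FRMD6, a FERM-domain gene whose product is described as an activator of the Hippo cascade, had 266, 270 and 264 CPM in TGFB1 replicates 1, 2 and 3, against 195, 193 and 184 CPM in Vehicle replicates 1, 2 and 3. The libraries within each group lay close together, and the log2 fold change was 0.48 ± 0.05 (SE, adjusted p = 1.42e-08). RASSF1, a scaffold gene of the upstream kinases, had 11.4, 11.5 and 14.8 CPM in TGFB1 replicates 1, 2 and 3, against 19.5, 16.7 and 16.1 CPM in Vehicle replicates 1, 2 and 3. Its log2 fold change of -0.47 (adjusted p = 0.0123) lost the call without TGFB1 replicate 1 or 2 or Vehicle replicate 1 or 2 (adjusted p = 0.0505 to 0.143). RASSF1 shares 17.9% of its exonic bases with RASSF1-AS1, an antisense gene that had at most 0.0324 CPM. The count for this list was 1 without any of those 4 libraries. MOB1A, an abundant LATS activator gene, had a log2 fold change of -0.01 at 303.2 CPM, and its sign turned with total-count scaling and with no low-count filter.

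Of 7 genes of the TEAD paralogs and the VGLL cofactors, which compete with or replace YAP and TAZ on TEAD, 6 were tested. With edgeR, DESeq2 or limma-voom 0 were called, where edgeR called 3.31% of all tested genes. An unadjusted p under 0.05 in edgeR was reached by 2048 of all 16690 tested genes and by 1 of these 6. That gene was VGLL3, named after its value was seen, at 7.32 ± 1.16 CPM with TGFB1 and 5.03 ± 0.776 CPM in Vehicle (SD, n = 3 each; log2 fold change 0.52, adjusted p = 0.0699). Without Vehicle replicate 3 VGLL3 passed (adjusted p = 0.0275), which made the count 1. VGLL4 and TEAD4, the most abundant of the list, had log2 fold changes of 0.05 and 0.04. Exons of the other strand cover 23.7% of the exonic bases of VGLL4, and their part in its counts was not tested. In the CCN family beyond CCN1 and CCN2, CCN4 and CCN5 did not pass the low-count filter. CCN3 averaged 16.7 ± 1.02 CPM with TGFB1 and 18.8 ± 1.24 CPM in Vehicle (log2 fold change -0.18, adjusted p = 0.498), and CCN6 averaged 3.83 ± 0.408 and 3.65 ± 0.493 CPM with TGFB1 and in Vehicle (SD, n = 3 each; adjusted p = 0.956).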

How the data were processed

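RNA-seq libraries of A375 cells, 3 given TGFB1 and 3 given Vehicle, were compared. The authors deposited raw counts of reads per Ensembl gene, made with cutadapt, TopHat2 2.1 and HTSeq on GRCh38, per the submitters' processing notes. The sources used here do not give the annotation release or the counting mode. Per the labels, RNA was depleted of ribosomal RNA, although the molecule is labelled polyA RNA.

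Gene IDs gave a symbol for 41445 of 58051 rows. Genes passing edgeR's filterByExpr (minimum count 10, total 15) were scaled by TMM and tested in edgeR 4.0.16 (R 4.3.3) by the robust quasi-likelihood F-test, group as the sole term, with Benjamini-Hochberg adjustment over all tested genes and a threshold of 0.05. SEs of log2 fold changes are their size over the square root of F, and 95% intervals use the fit's degrees of freedom. Alternatives used DESeq2 1.42.0, limma-voom (limma 3.58.1), other scalings and filters, a replicate block and leaving out each library. The test was checked on simulated data. Positions and exonic lengths are from GENCODE 29. The members and lists were chosen with earlier results of these data known. Beyond the members, the genes named by rule are those called in each list, its 2 most abundant others and SMAD7. AXL, NUAK2 and VGLL3 were added after their values were seen. Outside this rule, TEAD2, TEAD3, CCN4 and CCN5 are named as family members and LATS1 and LIMD1 as ratio partners. Cell type markers and genes of the other strand are named as well.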

Additional observations from a re-analysis of the deposited data

How the results depend on the processing

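The called members numbered 3 under all 16 alternatives, the threshold of 0.01 included. CCN2, AMOTL2 and FOXF2 kept their calls with log2 fold changes of 0.59 to 0.72, 0.67 to 0.78 and 0.83 to 1.06 when 1 library was left out. Under the same, the others ran from 0.34 to 0.59 (CCN1), -0.20 to 0.066 (ANKRD1), 0.08 to 0.22 (LATS2), -0.030 to 0.090 (TEAD1), 0.06 to 0.13 (YAP1), 0.07 to 0.12 (WWTR1) and -0.16 to -0.06 (AJUBA), and none was called. Counts of all called genes ran from 365 to 923 (main 553), higher 264 to 683 and lower 97 to 240; at 0.01 the lower genes numbered 95. Other targets called ran from 1 to 4, Hippo genes from 1 to 2 (1 at 0.01) and TEAD and VGLL genes from 0 to 1 (1 with no low-count filter, VGLL3). Signs turned, all near 0, for CRIM1 (-0.060 to 0.0084), MYOF (-0.077 to 0.050, and 0.0022 with no filter), MOB1A (-0.039 to 0.020, 0.0021 with total counts and 0.0052 with no filter), TEAD4 (-0.021 to 0.083) and CCN6 (-0.017 to 0.16). The cause was not tested. Differences of log2 ratios ran from 0.07 to 0.27 (CCN2 to CCN1), -0.04 to 0.01 (WWTR1 to YAP1), 0.07 to 0.15 (LATS2 to LATS1), 0.61 to 0.68 (AMOTL2 to AMOTL1) and -0.14 to 0.0045 (AJUBA to LIMD1).

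Replicate numbers showed no clear pairing of the libraries. Deviations from the group mean, of libraries numbered 1, 2 and 3, correlated at -0.0296, 0.0418 and 0.00761 between groups. TGFB1 replicates 1 and 3 correlated best with another number, and TGFB1 replicate 2 with its own. Deviations from a mean of 3 libraries sum to 0 within a group, so these correlations cannot exclude pairing. With the replicate block 601 genes were called and again 3 members, and 3 targets, with NUAK2 (adjusted p = 0.0332) added. The members with the fewest reads were ANKRD1, FOXF2 and CCN1, at 53 to 243 counts a library.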
